A study of Mus musculus with 14 samples.

Results

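Expression of 10 genes of early lymphoid priming was compared between stem and progenitor cells of mouse bone marrow sorted by their level of a histone label. Divisions dilute this label. The 10 genes fall into a few classes. These are the receptor genes Il7r and Notch1, the chromatin and transcription regulators Ikzf1 and Satb1, and the recombination genes Rag1, Rag2 and Dntt. The others are Ighm, Vpreb1 and Igll1, which encode parts of the pre-B cell receptor. The 10 genes were taken by name from the 18194 genes that could be named on the arrays. A gene's value was that of its brightest probe set by the mean over all arrays, among probe sets annotated with that symbol alone. In all, 30 of the 45101 probe sets on the array met this condition for the 10 genes, and the other probe sets of each gene served as a check.

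Lymphoid priming is the stage at which multipotent progenitors begin to transcribe genes of the B and T cell programmes before they lose other fates. The interleukin-7 receptor carries survival and growth signals for lymphoid precursors, Notch1 directs progenitors toward the T lineage, and Ikaros, the product of Ikzf1, is needed for lymphoid development. RAG1 and RAG2 cut antigen receptor genes, and terminal transferase, the product of Dntt, adds bases at the cut ends. An immunoglobulin mu chain (Ighm) and the surrogate light chain of VPREB1 and lambda5 (Igll1) then form the pre-B cell receptor.

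All 14 arrays came from LSK cells, which lack lineage markers and carry Sca1 and Kit, of huCD34-tTA X Tet-O-H2B-GFP double transgenic mice on a C57BL/6 background. The human CD34 promoter drives tTA, the tetracycline-controlled activator that switches on GFP-tagged histone H2B. The label was thus made in cells in which this promoter was active before doxycycline. All mice, whatever the sorted level, drank doxycycline (1 mg/ml) over 12 weeks, beginning at 6 to 8 weeks of age, which stopped new labelling while divisions diluted the GFP. Sorted levels were GFP0 (lowest GFP, 2 arrays), GFP1 (3), GFP2 (3), GFP3 (2) and GFP4 (label kept, 4). Neighbouring levels are about 1 to 2 divisions apart. No untreated or unlabelled arrays were analysed here, so dilution in GFP0 cannot be told apart from little label at the start. The labels speak of biological replicates without naming animals, so p-values measure the spread between sorted samples, which may be technical in part.

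Values are log2 expression per probe set, between 2.69 and 15.1 over the table with a median of 7.03. They have no fixed background, and the number of arrays limits the precision. Of the genes of the sorting gate, Kit averaged 9.15 ± 0.34 in GFP4 and 8.51 ± 0.42 in GFP0, and Ptprc (CD45) averaged 11.80 ± 0.50 in GFP4 and 11.70 ± 0.32 in GFP0 (SD, n = 4 and 2). Cd34 averaged 10.15 ± 0.40 in GFP4 and 10.57 ± 0.49 in GFP0. By limma, 0 of these 3 genes passed the slope test described next (1 higher and 0 lower at an unadjusted p under 0.05), and Ly6a (Sca1) was not analysed here. GFP0 replicate 1 and GFP4 replicate 1 stood apart by a narrow spread of values, with interquartile ranges of 2.09 and 2.21 against 2.32 to 2.73 on the other arrays. GFP0 replicate 1 also had the highest level of neutrophil and monocyte genes, and values without it are given beside the results that depend on it.

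Of the 10 genes 6 fell with GFP across the 5 levels, none rose, and 4 did not pass. The test was a limma fit to all genes with a slope per GFP level, given equal weight per level, and a Benjamini-Hochberg adjusted p under 0.05. A negative slope means a lower value in the cells that kept more label. At an unadjusted p under 0.05 in limma, 8 of the 10 were lower and 0 higher, where 7.0% of all genes were lower and 9.71% higher. Over all genes 3.35% passed the adjusted test, 1.07% with a fall and 2.28% with a rise. Without GFP0 replicate 1 the count of genes that fell was 2 (Dntt and Il7r), without GFP3 replicate 2 it was 3 (with Satb1), and without GFP4 replicate 4 it was 4 (with Satb1 and Vpreb1). The median slope was -0.50 log2 per level over the 10 genes and -0.01 over all genes tested. In bulk samples, fewer cells of a type and less RNA per cell cannot be told apart.

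**Figure D1:**
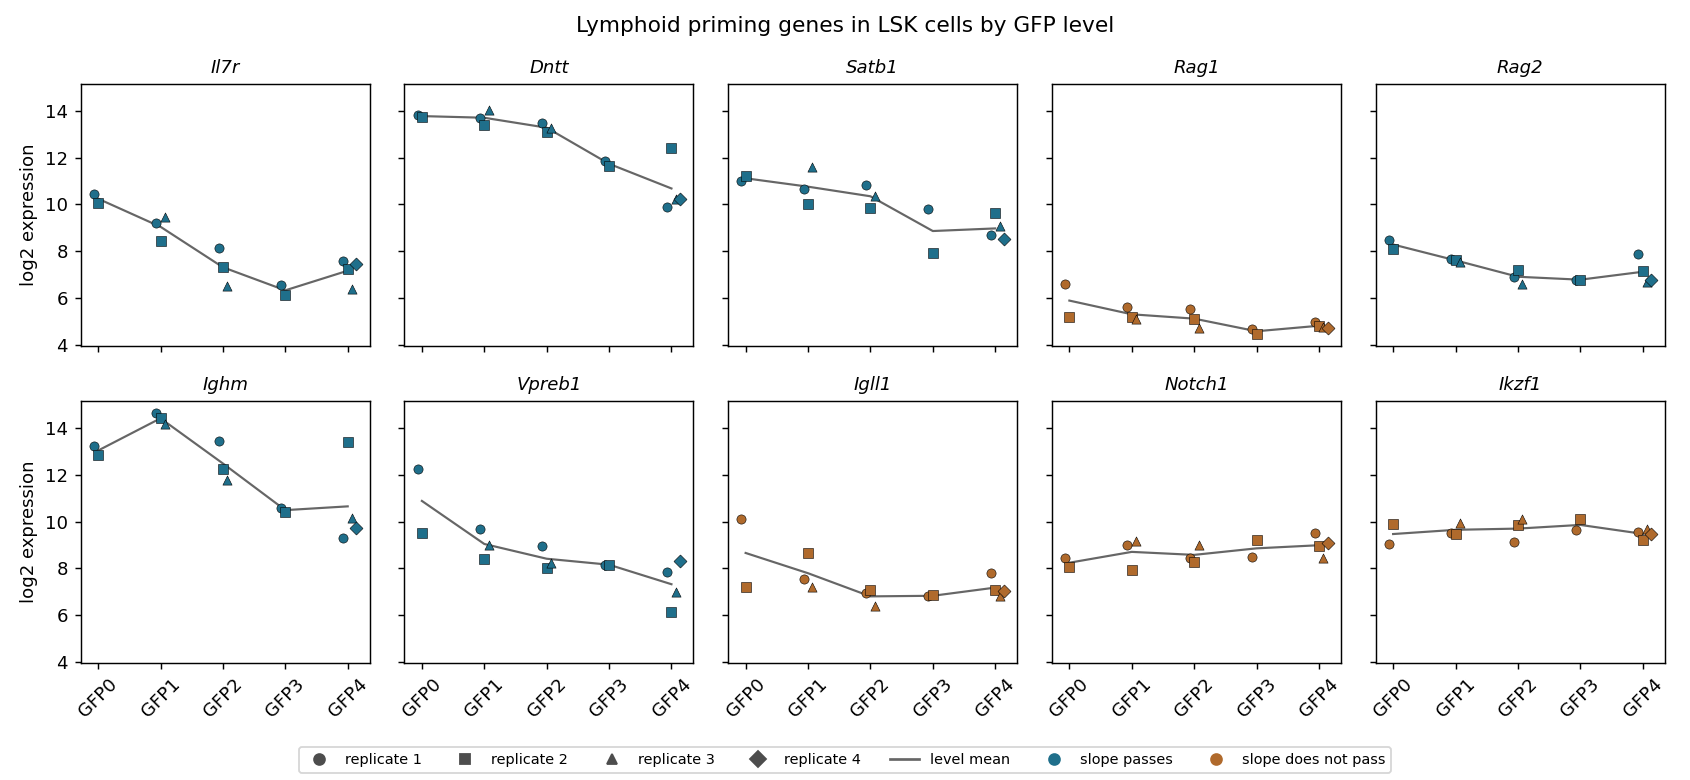
Log2 expression of each of the 10 genes (y axis, brightest probe set) on every array at the 5 GFP levels (x axis), with marker shapes for replicate numbers and a line through level means. The 6 genes whose slope over GFP0 to GFP4 passed are in blue and the 4 others in brown; Il7r lies at 10.44 and 10.04 in GFP0 and at 7.60 or below in all GFP4 arrays.

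GFP4 against GFP0 alone gave 3 of the 10 genes lower (Il7r, Dntt and Vpreb1), none higher and 7 that did not pass, where 1.68% of all genes passed, 0.429% lower and 1.25% higher in GFP4. The count was 0 without GFP0 replicate 1 and 5 without GFP4 replicate 2, when Ighm and Satb1 passed too. The GFP4 arrays all lay below the GFP0 arrays for 6 genes, namely Il7r, Dntt, Satb1, Rag2, Vpreb1 and Rag1, and overlapped for the other 4. Over all genes 7.75% showed such a separation downward and 10.4% upward. When the GFP0 arrays were kept out of the contrast, the slope over GFP1 to GFP4 was negative and passed for 4 of the 10 genes (Il7r, Dntt, Satb1 and Ighm), with 6 not passing. The call for Satb1 (adjusted p = 0.0421 by limma) was lost in most alternatives and passed in 9 of 28, and in 3 of the 14 fits that left out an array. Over all genes 1.51% passed that slope, 0.841% with a fall and 0.671% with a rise. That count was 1 (Dntt) without GFP1 replicate 1 and again without GFP3 replicate 2, and 2 without GFP1 replicate 3 (Dntt and Ighm) or GFP4 replicate 4 (Dntt and Il7r). Both slopes and the GFP4 to GFP0 difference share arrays and are no independent evidence of each other.

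**Figure D2:**
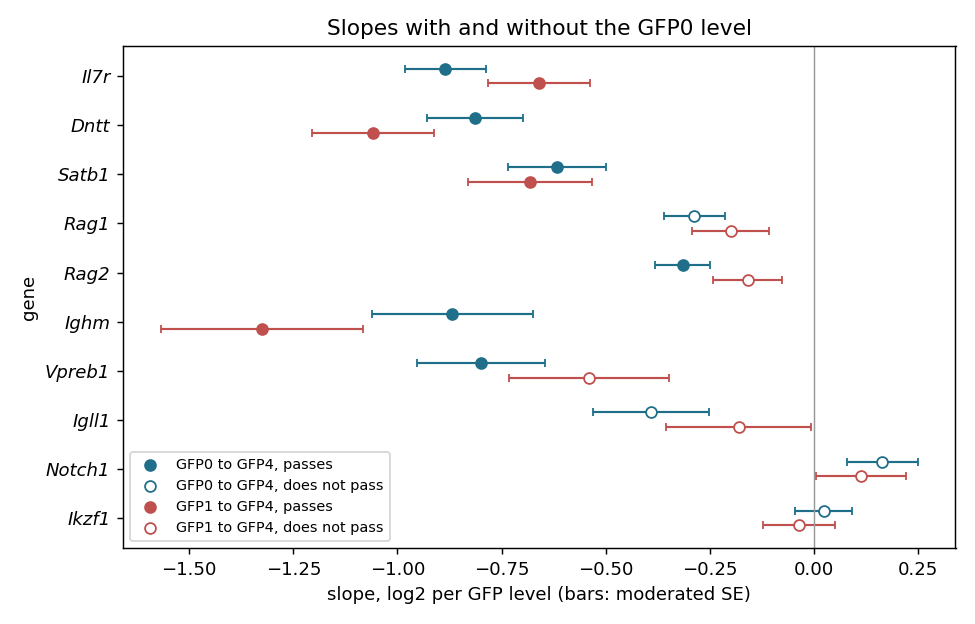
Slope per GFP level in log2 units (x axis, bars are moderated standard errors) for each gene (y axis), over GFP0 to GFP4 in blue and over GFP1 to GFP4 in red, with filled points where the adjusted p was under 0.05. Dntt and Ighm have steeper slopes without GFP0 (-1.06 and -1.33) than with it (-0.81 and -0.87), while those of Il7r, Rag2 and Vpreb1 are less steep.

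Among the receptors, Il7r, which encodes the alpha chain of the interleukin-7 receptor, had the steepest slope of the 10 genes with all arrays, and in 18 of 27 alternatives, while Ighm was steepest in 5, Dntt in 2 and Vpreb1 in 2. Its probe set (1448575_at) read 10.44 and 10.04 in GFP0, then 9.22, 8.46 and 9.46 in GFP1, and 8.13, 7.32 and 6.51 in GFP2. It read 6.55 and 6.12 in GFP3 and 7.60, 7.25, 6.39 and 7.45 in GFP4. The arrays of GFP0, GFP1 and GFP2 did not overlap with one another, GFP3 was lowest on average, and GFP4 overlapped both GFP2 and GFP3. The slope was -0.89 ± 0.10 log2 per level (moderated SE, adjusted p = 0.000957). Il7r averaged 7.17 ± 0.54 in GFP4 and 10.24 ± 0.28 in GFP0 (SD, n = 4 and 2), 8.4-fold lower in GFP4 (adjusted p = 0.00556 by limma).

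The slope of Il7r passed in all 27 alternative analyses, with adjusted p between 0.000373 and 0.024. The GFP4 to GFP0 difference of Il7r was -2.87 without GFP0 replicate 1 (adjusted p = 0.0757), within a range of 0.00337 to 0.11 over the alternatives. Over GFP1 to GFP4 the slope of Il7r was -0.66 ± 0.12 (adjusted p = 0.0208 by limma) and passed in 22 of 28 alternatives. A second probe set of Il7r (1448576_at) also passed over GFP0 to GFP4, with a slope of -0.38 ± 0.08. Over GFP1 to GFP4 the slope of that probe set was -0.35 ± 0.10 and did not pass (adjusted p = 0.114 by limma). Its GFP4 to GFP0 difference of -1.44 ± 0.34 did not pass either (adjusted p = 0.0654 by limma). The order of levels for Il7r was GFP3, GFP4, GFP2, GFP1 and GFP0 from low to high, and GFP3, GFP4 and GFP2 overlapped.

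Notch1, the receptor for Delta and Jagged ligands, did not pass any of the tests. It averaged 8.24 ± 0.28 in GFP0, 8.71 ± 0.69 in GFP1, 8.58 ± 0.37 in GFP2, 8.86 ± 0.50 in GFP3 and 8.99 ± 0.44 in GFP4. GFP4 arrays read 9.50, 8.95, 8.43 and 9.08, and GFP0 arrays read 8.44 and 8.05, so that 1 GFP4 array fell within the GFP0 range. The slope was 0.16 ± 0.09 (adjusted p = 0.363 by limma), and a second probe set of Notch1 had a slope of 0.03 ± 0.05.

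The transcript of Ikzf1, which encodes the zinc finger protein Ikaros, had the slope nearest to 0 of the 10 genes. Ikzf1 (1436312_at) read 9.05 and 9.89 in GFP0, 9.51, 9.47 and 9.96 in GFP1, and 9.12, 9.85 and 10.13 in GFP2. In GFP3 it read 9.62 and 10.09, and in GFP4 9.54, 9.20, 9.69 and 9.48. All levels overlapped. The slope was 0.02 ± 0.07 per level (adjusted p = 0.902), and the GFP4 to GFP0 difference was 0.01 ± 0.31 (adjusted p = 0.995 by limma). The sign of both values changed with the processing, which leaves no direction for Ikzf1.

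Satb1, which encodes a chromatin organiser that binds AT-rich DNA, was highest on average in the cells with the lowest GFP. Its probe set (1439449_at) read 11.00 and 11.23 in GFP0, 10.64, 10.02 and 11.61 in GFP1, and 10.85, 9.83 and 10.37 in GFP2. In GFP3 it read 9.81 and 7.92, and in GFP4 8.69, 9.63, 9.07 and 8.51. The first 3 levels overlapped, and every GFP3 and GFP4 array lay below every GFP0, GFP1 and GFP2 array. The slope was -0.62 ± 0.12 (adjusted p = 0.0153), while the GFP4 to GFP0 difference of -2.14 ± 0.52 did not pass (adjusted p = 0.0593 by limma).

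With either GFP0 array left out the slope of Satb1 missed the threshold, with adjusted p of 0.0753 and 0.0708 and a range of 0.0056 to 0.225 over all alternatives. Over GFP0 to GFP4 all 5 probe sets of Satb1 had negative slopes, from -0.62 to -0.08, but only the brightest passed by itself. Over GFP1 to GFP4, 1436182_at (-0.50, adjusted p = 0.0361 by limma) and 1416007_at (-0.92, adjusted p = 0.0386) passed. In that fit of single probe sets the brightest missed the threshold (adjusted p = 0.0528), as did 1416008_at (0.12) and 1439315_at (0.674). The mean over the probe sets of Satb1 passed over GFP1 to GFP4, with a slope of -0.56 (adjusted p = 0.00621 by limma). The 4 probe sets of Satb1 other than the brightest were all highest in GFP1 and not in GFP0. The gap was widest for 1416007_at, which averaged 9.53 in GFP1 and 8.35 in GFP0.

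Dntt, which encodes terminal transferase, stayed high through the first 3 levels and was lower in the cells with the most label. The arrays read 13.81 and 13.72 in GFP0, 13.68, 13.38 and 14.02 in GFP1, and 13.46, 13.08 and 13.27 in GFP2. They read 11.83 and 11.63 in GFP3 and 9.90, 12.38, 10.22 and 10.21 in GFP4. No GFP3 or GFP4 array reached the lowest array of GFP0, GFP1 or GFP2. Dntt averaged 10.68 ± 1.15 in GFP4 and 13.77 ± 0.06 in GFP0 (SD, n = 4 and 2), 8.49-fold lower in GFP4 (adjusted p = 0.0114 by limma). GFP4 replicate 2 stood apart at 12.38 from the other 3 GFP4 arrays.

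The slope of Dntt was -0.81 ± 0.12 over GFP0 to GFP4 (adjusted p = 0.00292) and -1.06 ± 0.15 over GFP1 to GFP4 (adjusted p = 0.0052 by limma). Without GFP4 replicate 2 the difference between GFP4 and GFP0 was -3.65. Without GFP0 replicate 1 it was -3.04 (adjusted p = 0.106), and without GFP0 replicate 2 it was -3.13 (adjusted p = 0.0588), where the lone GFP0 array was assumed to vary like the other groups. Over all alternatives the adjusted p of this difference ran from 1.28e-05 to 0.137. The brightest probe set (1449757_x_at) is of a type whose probes can also bind other transcripts, but the other 2 probe sets of Dntt passed with slopes of -0.90 and -0.79.

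**Figure D3:**
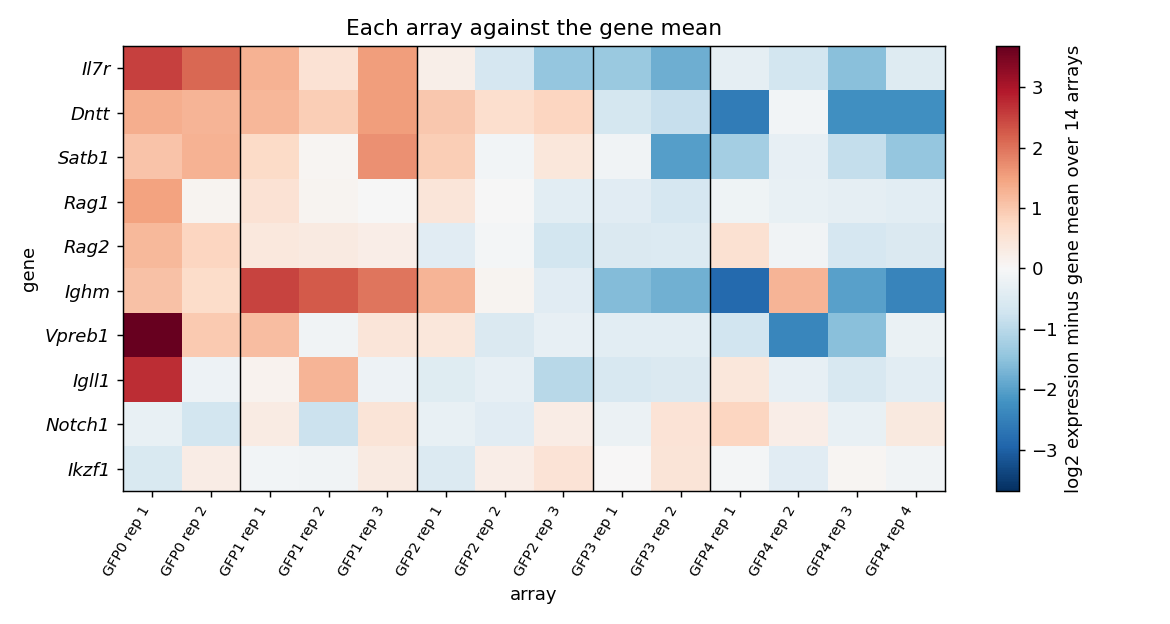
Log2 expression minus the gene's mean over 14 arrays (colour scale, red above and blue below the mean) for each gene (rows) on each array (columns, with lines between GFP levels). GFP0 replicate 1 is the reddest column for Vpreb1 and Igll1 (12.24 and 10.12 log2), and GFP4 replicate 2 is red for Ighm (13.41), unlike the other GFP4 arrays.

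The recombinase genes Rag1 and Rag2 lie next to each other on chromosome 2, with 0 gene starts of the RefSeq table between them. Rag2 (1418065_at) read 8.48 and 8.10 in GFP0, 7.68, 7.62 and 7.54 in GFP1, and 6.90, 7.22 and 6.63 in GFP2. It read 6.79 and 6.79 in GFP3 and 7.87, 7.17, 6.70 and 6.76 in GFP4. GFP0, GFP1 and GFP2 did not overlap one another, and GFP4 spanned from within the GFP2 range to above every GFP1 array. The slope was -0.32 ± 0.07 (adjusted p = 0.023 by limma). GFP4 against GFP0 gave -1.16 ± 0.29, which did not pass (adjusted p = 0.0649 by limma). Without GFP0 replicate 1 the slope of Rag2 was -0.28 (adjusted p = 0.137, with a range of 0.00409 to 0.183 over the alternatives). It passed in 11 of the 14 fits that left out an array.

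Rag1 (1450680_at) was the only one of the 10 genes whose mean lay below the median of the table. It read 6.59 and 5.21 in GFP0, 5.64, 5.21 and 5.10 in GFP1, 5.56, 5.10 and 4.73 in GFP2, and 4.70 and 4.49 in GFP3. GFP4 arrays read 4.97, 4.84, 4.78 and 4.72. The GFP4 values lay below both GFP0 values, but 1 of these, replicate 1, stood far above all other arrays. The slope of -0.29 ± 0.07 did not pass (adjusted p = 0.0529 by limma). The GFP4 to GFP0 difference of Rag1 was -1.07 with all arrays and -0.38 without GFP0 replicate 1. Without GFP0 replicate 2 it was -1.76 and passed (adjusted p = 0.0207), as did the slope of -0.43 (adjusted p = 0.00949 by limma). The slope of Rag1 passed in 4 of 26 alternatives, with adjusted p from 0.00949 to 0.327.

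The 300-base windows at the starts of Rag1 and Rag2 are shown because the pair is neighbouring. They run from 250 bases before to 50 bases after the start of RefSeq GRCm38.p6, 5′ to 3′ in the direction of the gene. Capitals mark any match, on either strand, to 6 short motifs: the E box of E2A proteins (CAGGTG), a second, palindromic form of the E box (CAGCTG), a core motif of Ikaros proteins (TGGGAA), a core motif of the factor PU.1 (GAGGAA), the TATA box (TATAAA) and the motif of EBF1. Rag1 is at chr2:101649483-101649782 on the minus strand and Rag2 at chr2:101624462-101624761 on the plus strand.
Rag1: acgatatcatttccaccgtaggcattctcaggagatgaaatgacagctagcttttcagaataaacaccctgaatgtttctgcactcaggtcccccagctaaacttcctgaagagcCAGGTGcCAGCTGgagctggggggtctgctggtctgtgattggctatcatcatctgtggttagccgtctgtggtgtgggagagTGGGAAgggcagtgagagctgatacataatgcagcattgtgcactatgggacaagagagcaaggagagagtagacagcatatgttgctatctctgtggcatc
Rag2: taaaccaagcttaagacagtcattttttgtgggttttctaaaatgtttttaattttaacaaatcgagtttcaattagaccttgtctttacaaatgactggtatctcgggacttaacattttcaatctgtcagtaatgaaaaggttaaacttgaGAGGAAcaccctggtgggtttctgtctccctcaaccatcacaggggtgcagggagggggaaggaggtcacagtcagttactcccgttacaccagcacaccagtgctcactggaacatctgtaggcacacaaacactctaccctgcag
The Rag1 window held both forms of the E box and the Ikaros core once each, and the Rag2 window held the PU.1 core once. No 2 matches overlapped in either window. Such single matches are common, since of 32851 RefSeq windows, 20.2% hold the first form of the E box, 16.3% the second, 25.6% the Ikaros core and 28.3% the PU.1 core. The EBF1 motif occurs in 0.904% of the windows and the TATA box in 13.6%, and neither is in the 4 windows printed here.

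Ighm, the mu heavy chain, was highest on average at the second level, GFP1. The step of Ighm from GFP0 to GFP1 did not pass (adjusted p = 0.541 by limma). Its departure from a straight line did not pass either (adjusted p = 0.679 by limma's F test). Its probe set (1427351_s_at) read 13.23 and 12.83 in GFP0, 14.64, 14.42 and 14.14 in GFP1, and 13.43, 12.25 and 11.75 in GFP2. In GFP3 it read 10.58 and 10.40, and in GFP4 9.29, 13.41, 10.16 and 9.73. Every GFP1 array lay above all others, and GFP4 replicate 2 lay above both GFP0 arrays while the other 3 GFP4 arrays were below every GFP0, GFP1, GFP2 and GFP3 array. Ighm averaged 10.65 ± 1.88 in GFP4 and 13.03 ± 0.28 in GFP0 (SD, n = 4 and 2), a difference of -2.38 ± 0.85 that did not pass (adjusted p = 0.199 by limma).

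The slope of Ighm was -0.87 ± 0.19 over GFP0 to GFP4 (adjusted p = 0.0297) and -1.33 ± 0.24 over GFP1 to GFP4 (adjusted p = 0.0191 by limma). Without GFP4 replicate 2 the difference of GFP4 from GFP0 was -3.30 and passed (adjusted p = 0.00277, with a range up to 0.609 over the alternatives). Without GFP0 replicate 1 the slope was -0.83 and did not pass (adjusted p = 0.148, within a range of 0.000144 to 0.213). It passed in 8 of the 14 fits that left out an array. Of 11 probe sets that name Ighm alone, 2 passed, with slopes of -0.90 and -0.87, and the other 9 lay between -0.50 and 0.08. The mean over all 11 gave a slope of -0.26 that did not pass (adjusted p = 0.105). High values in GFP1 were not shared by all probe sets and replicates. In GFP1 replicates 1, 2 and 3 the other probe set that passed, 1427329_a_at, read 13.36, 12.58 and 12.16. In the same order 1427870_x_at read 11.72, 11.53 and 8.10, 1425247_a_at 10.88, 10.42 and 7.32, and 1425324_x_at 9.42, 9.11 and 5.82. Probe sets of this locus can read variable or shared segments of the heavy chain, and 4 more that name several genes were not used.

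**Figure D4:**
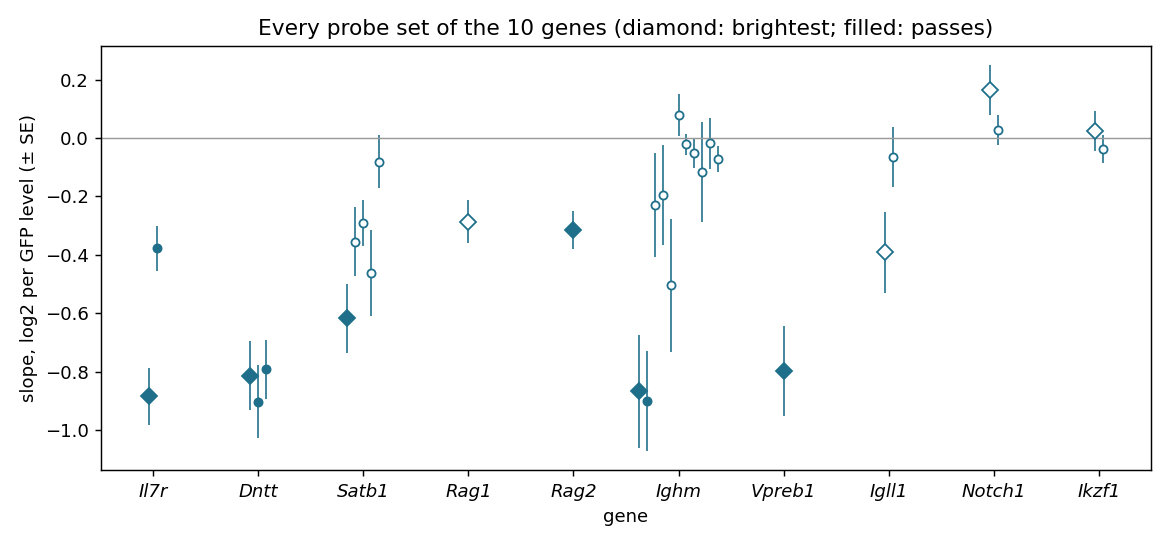
Slope over GFP0 to GFP4 in log2 per level (y axis, bars are moderated standard errors) of every probe set that names 1 of the 10 genes alone (x axis), with diamonds for the brightest probe set and filled symbols where the slope passed. All 3 probe sets of Dntt and both of Il7r passed, 2 of 11 did for Ighm, and 1 of 5 for Satb1.

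Vpreb1 and Igll1 encode the 2 proteins of the surrogate light chain and lie side by side on chromosome 16, again with 0 starts of other genes between them. Vpreb1 (1449869_at) read 12.24 and 9.52 in GFP0, 9.70, 8.42 and 9.01 in GFP1, and 8.96, 8.04 and 8.25 in GFP2. It read 8.17 and 8.15 in GFP3 and 7.85, 6.16, 7.00 and 8.30 in GFP4. GFP4 lay below both GFP0 arrays, and neighbouring levels overlapped throughout. Vpreb1 averaged 7.33 ± 0.94 in GFP4 and 10.88 ± 1.92 in GFP0 (SD, n = 4 and 2), 11.7-fold lower in GFP4 (adjusted p = 0.0216 by limma). The slope was -0.80 ± 0.15 (adjusted p = 0.0159 by limma).

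Both calls for Vpreb1 depended on GFP0 replicate 1. Without it the slope of Vpreb1 was -0.53 (adjusted p = 0.113, within 0.00496 to 0.127 over the alternatives) and the GFP4 to GFP0 difference was -2.19 (adjusted p = 0.213, within 0.00997 to 0.22). Over GFP1 to GFP4 the slope was -0.54 ± 0.19 and did not pass (adjusted p = 0.208 by limma). The single Vpreb1 probe set may also bind transcripts of its near-identical copy Vpreb2, and 1 probe set that names both was not used.

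Igll1 (1420176_x_at), the lambda5 gene, did not pass any test with all arrays. It read 10.12 and 7.20 in GFP0, 7.53, 8.65 and 7.21 in GFP1, 6.96, 7.09 and 6.38 in GFP2, and 6.81 and 6.86 in GFP3. The GFP4 arrays read 7.80, 7.09, 6.82 and 7.02 and overlapped GFP0. The slope of Igll1 was -0.39 ± 0.14 (adjusted p = 0.162 by limma). The GFP4 to GFP0 difference was -1.48 with all arrays and -0.02 without GFP0 replicate 1. Without GFP0 replicate 2 the difference was -2.94 (adjusted p = 0.0207) and the slope -0.68 (adjusted p = 0.0106 by limma), and both passed, the only alternative of 27 in which either did. The adjusted p of the slope of Igll1 reached 0.813 over the alternatives. A second probe set of Igll1 had a slope of -0.06 ± 0.10.

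The windows at the starts of Vpreb1 (chr16:16869206-16869505) and Igll1 (chr16:16863936-16864235), both on the minus strand of GRCm38.p6, are shown as the other neighbouring pair, in the same form and from RefSeq.
Vpreb1: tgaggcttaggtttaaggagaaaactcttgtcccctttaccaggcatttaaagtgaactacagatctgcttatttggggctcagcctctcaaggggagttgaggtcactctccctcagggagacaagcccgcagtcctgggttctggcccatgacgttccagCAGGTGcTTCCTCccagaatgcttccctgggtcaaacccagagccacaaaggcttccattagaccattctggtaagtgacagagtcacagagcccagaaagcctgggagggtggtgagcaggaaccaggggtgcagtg
Igll1: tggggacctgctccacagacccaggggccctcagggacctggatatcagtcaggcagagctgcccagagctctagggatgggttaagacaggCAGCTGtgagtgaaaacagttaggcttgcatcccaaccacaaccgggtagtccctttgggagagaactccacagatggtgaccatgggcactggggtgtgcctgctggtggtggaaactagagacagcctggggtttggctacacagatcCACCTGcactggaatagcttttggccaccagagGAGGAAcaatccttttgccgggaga
Vpreb1 held the first form of the E box and the PU.1 core once each, and Igll1 held both forms of the E box and the PU.1 core once each, with no overlap between matches. Windows were found for 9 of the 10 genes, 14 windows in all since Satb1 has 5 and Ikzf1 has 2. The windows of Il7r and Dntt, both windows of Ikzf1 and the second of those of Satb1 held 0 of the 6 motifs. These matches describe letters and not binding.

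Between neighbouring levels the largest falls of the means lay at different steps, and whether these places differ between genes was not tested. No step passed for any gene of the table by limma (0 genes in each of 4 steps), while 1969, 493, 247 and 716 genes had an unadjusted p under 0.05 in the steps from GFP1 minus GFP0 to GFP4 minus GFP3. Of the 10 genes 3, 3, 3 and 0 did. Il7r differed by -1.20 ± 0.46 between GFP1 and GFP0 and by -1.73 ± 0.41 between GFP2 and GFP1. Dntt differed by -0.07 ± 0.54 and -0.42 ± 0.48 in those steps and by -1.54 ± 0.54 between GFP3 and GFP2. Satb1 had its largest step at the same place, -1.48 ± 0.55.

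Ighm was 1.37 ± 0.90 higher in GFP1 than in GFP0, differed by -1.93 ± 0.80 between GFP2 and GFP1, and by -1.99 ± 0.90 between GFP3 and GFP2. A departure from a straight line passed for 0 genes by limma's F test, while 1275 genes had an unadjusted p under 0.05, with Il7r and Rag2 among them. The places of the steps are values of these arrays and were not told apart from straight lines.

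Genes around each of the 10 in their pathways were read from 7 lists, shown in the plot of slopes by list. Of 11 measured genes of interleukin-7 receptor signalling 2 rose, 1 fell and 8 did not pass, with a median slope of 0.14. At an unadjusted p under 0.05 in limma, 6 of the 11 were higher and 1 lower, where 9.71% of all genes were higher and 7.0% lower. Cish, a feedback inhibitor of cytokine signalling, averaged 11.31 ± 0.32 in GFP4 and 9.49 ± 0.23 in GFP0 (SD, n = 4 and 2), with a slope of 0.49 ± 0.06. All 4 GFP4 arrays of Cish lay above both GFP0 arrays. Crlf2, a receptor chain for thymic stromal lymphopoietin, which also uses IL7R, rose with a slope of 0.21 ± 0.05, and the survival gene Bcl2 fell with -0.35 ± 0.09. The rise of Cish passed in 27 of 27 alternatives, that of Crlf2 in 12 and the fall of Bcl2 in 8.

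Of 20 measured genes of the Notch pathway 1 rose and 19 did not pass (3 higher and 0 lower at an unadjusted p under 0.05 in limma). The gene that rose was Mfng, a glycosyltransferase that modifies Notch receptors, at 11.02 ± 0.18 in GFP4 and 9.68 ± 0.37 in GFP0 (SD, n = 4 and 2), with a slope of 0.33 ± 0.06. It passed in 21 of 27 alternatives. Of 13 genes of the Ikaros family and the NuRD complex 0 passed in limma (2 higher and 0 lower at an unadjusted p under 0.05), Mta1 coming nearest with a slope of 0.19 ± 0.05 (adjusted p = 0.0672 by limma). Likewise 0 of 16 further lymphoid transcription factor genes passed (2 higher and 1 lower unadjusted), Bcl11a coming nearest with 0.23 ± 0.07 (adjusted p = 0.0979 by limma). In those 2 lists the median slopes were 0.08 and 0.09, against -0.01 over all genes.

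Among 11 recombination partners 1 fell, the end-joining ligase gene Lig4, and 10 did not pass. At an unadjusted p under 0.05 in limma, 4 of the 11 were lower and 1 higher. Lig4 averaged 5.13 ± 0.37 in GFP4 and 6.78 ± 0.01 in GFP0 (SD, n = 4 and 2), with a slope of -0.37 ± 0.06. Of 10 further genes of the pre-B cell receptor and B lineage 1 fell, the B cell coactivator gene Pou2af1, with a slope of -0.72 ± 0.15. Unadjusted, 1 of these 10 was lower and 0 higher. Pou2af1 read 8.01 and 5.18 in the GFP0 arrays and 4.16 or less in every GFP4 array. Lig4 passed in 22 and Pou2af1 in 20 of 26 alternatives. As for Vpreb1 and Igll1, replicate 1 was the higher of the GFP0 arrays for Pou2af1, and without it the slope was -0.43 and did not pass (adjusted p = 0.14 by limma). The median slope of this list was -0.07.

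Of 10 surface genes of lymphoid-primed progenitors 3 fell, 1 rose and 6 did not pass (4 lower and 1 higher at an unadjusted p under 0.05 in limma). Cd48, a ligand of CD244 that is low on the most primitive cells, averaged 6.68 ± 1.37 in GFP4 and 10.44 ± 0.11 in GFP0 (SD, n = 4 and 2), with a slope of -1.07 ± 0.15. The chemokine receptor gene Ccr9 fell with -0.60 ± 0.13, but read 9.69 and 6.84 in the GFP0 arrays. Without GFP0 replicate 1 its slope was -0.31 and did not pass (adjusted p = 0.14 by limma), and over all alternatives it lay between -0.88 and -0.06. Cd52 fell with -0.38 ± 0.09. Ltb, which encodes lymphotoxin beta, rose with 0.55 ± 0.10, to 10.67 ± 0.44 in GFP4 against 8.54 ± 0.73 in GFP0. Of 27 alternatives Cd48 passed in 27, Ltb in 24, Ccr9 in 18 and Cd52 in 14. Of the 10 genes of these lists that passed, Cish, Cd48 and Ltb did so without GFP0 replicate 1 and the other 7 did not.

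**Figure D5:**
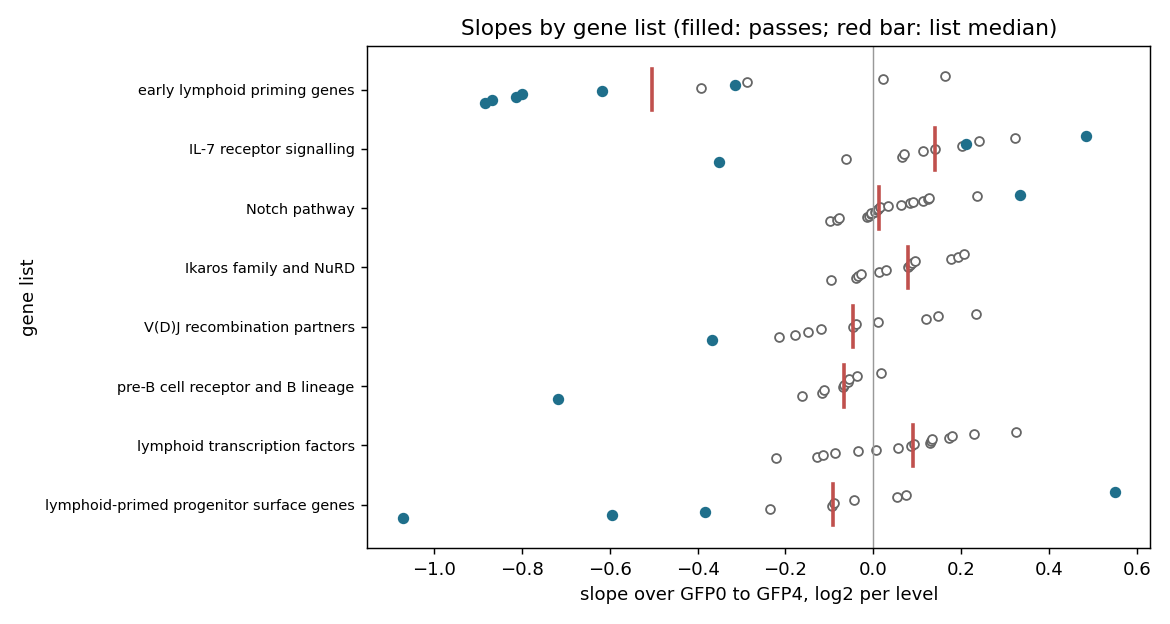
Slope over GFP0 to GFP4 in log2 per level (x axis) of each gene in 8 lists (y axis), one point per gene, filled where the slope passed, with a red bar at the list's median. The 10 lymphoid priming genes have a median of -0.50, and the other 7 lists have medians between -0.09 and 0.14.

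Markers of other cells moved with some of these values, and Ms4a1, Cd22, Jchain, Irf8 and S100a8 are named after their values were seen. Of 9 neutrophil and monocyte genes 1 fell, Ltf, and 8 did not pass, while 6 were lower at an unadjusted p under 0.05, as were 7.0% of all genes, and the median slope was -0.64. Lyz2, the brightest of that list, had a slope of -0.26 ± 0.18 (adjusted p = 0.522 by limma). The slope of Ltf was -0.63, and -0.40 without GFP0 replicate 1 (adjusted p = 0.202). The mean log2 level of the 9 genes ran from 7.56 to 9.43 over the GFP4 arrays and from 9.70 to 11.51 over the GFP0 arrays. GFP0 replicate 1 held the maximum of 11.51, and it was also the higher of the GFP0 arrays for 8 of the 10 lymphoid priming genes. The median of all its probe sets was higher too, 7.18 against 6.98 in GFP0 replicate 2. The share of all genes higher on GFP0 replicate 1 was not taken, so the count of 8 has no background beside it. Of 9 mature B and plasma cell genes 0 passed in limma (2 lower and 0 higher at an unadjusted p under 0.05), and their mean ran from 7.15 to 7.74 in GFP4 and was 8.32 and 7.65 in GFP0 replicates 1 and 2. Ms4a1 (CD20) read 8.16 and Cd22 read 9.08 in GFP0 replicate 1, against 6.03 and 7.26 in replicate 2. Cd79b, the brightest of that list, averaged 9.73 ± 0.33 in GFP4 and 9.97 ± 0.53 in GFP0.

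Jchain, the joining chain of secreted immunoglobulin, was highest in GFP1, at 11.73, 11.15 and 11.04, where Ighm was highest too. In T and NK cell genes 1 of 11 fell, Nkg7, which read 12.37 in GFP4 replicate 2 and between 8.39 and 10.13 in the other GFP4 arrays, against 12.83 and 13.22 in GFP0. The slope of Nkg7 was -0.81, and -0.85 without GFP0 replicate 1 and -0.77 without GFP0 replicate 2. That slope passed in 19 of 27 alternatives. Of 6 genes of type 2 innate lymphoid cells 1 fell (Icos), and of 7 of plasmacytoid dendritic cells 1 fell (Cox6a2). The slope of Cox6a2 was -0.39, and -0.21 without GFP0 replicate 1. At an unadjusted p under 0.05 in limma, 4 of these 7 genes were lower and 0 higher. Of the 6 innate lymphoid genes 2 were lower and 0 higher, and of the 11 T and NK cell genes 3 and 0. Over all genes 7.0% were lower and 9.71% higher. Klk1, the brightest plasmacytoid dendritic cell gene, had a slope of 0.02 ± 0.06. GFP4 replicate 2, which was high for Dntt and Ighm, also read 10.17 for Irf8 and 12.19 for S100a8, against at most 8.45 and 10.04 in the other GFP4 arrays. Array values have no true 0, so no marker can be called absent. The part of these other cells in the results was not tested.

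Profiles most like those of the 6 genes that fell were found by the mean absolute difference of values centred on each gene's mean over 14 arrays. For Il7r the nearest 3 genes were E330020D12Rik, 1700006J14Rik and Btnl9, at 0.50, 0.50 and 0.60 log2, where the median over all genes was 1.18. For Dntt they were BC035044, Plac8 and Lyz1, at 0.34, 0.42 and 0.47, with a median of 1.26. Those nearest to Satb1 were Milr1, Ptger2 and Rgs10, between 0.42 and 0.44. For Rag2 they were Zfp105, Cd8a and Nsg2, between 0.22 and 0.23. Ighm was nearest to BC035044, Igkv8-30 and Cst7, at 0.55, 0.59 and 0.61, and Vpreb1 to Ms4a4b, Arpp21 and Kcne3, at 0.56, 0.59 and 0.61. These likenesses share all 14 arrays and carry no test. Within the 10 genes Dntt was nearest to Satb1 (0.60), and Rag2 to Rag1 (0.31).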

How the data were processed

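RNA from the 14 sorted samples was amplified and turned into biotin-labelled cRNA for Affymetrix arrays, per the labels' protocols. The log2 probe-set values were used as deposited, and the authors made them with GCOS, RMA and affy, per the submitters' processing notes, without versions. RMA normalizes between arrays, which removes a shift shared by most genes. Medians of the arrays still ran from 6.96 to 7.18 and interquartile ranges from 2.09 to 2.73. There are no detection calls, and the arrays' genome build is not given in the sources used here.

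Of 45101 probe sets 34958 named 1 gene symbol, 932 several and 9211 none in the platform annotation. Of the first, 34754 matched RefSeq by gene identifier. Keeping the brightest per symbol left 18194 genes, dim ones included. Group means were fitted over the 14 arrays with limma 3.58.1 (R 4.3.3), with 9 residual and 3.99 prior degrees of freedom. Adjusted p-values in the text are limma's, two-sided and Benjamini-Hochberg over all genes of the fit, and passing means under 0.05. Adjusted p-values and calls of single probe sets come from a separate fit, adjusted over the 34958 probe sets. The same probe set can thus differ a little between the 2 fits. Standard errors are moderated. The fit was tested on simulated data. No 2 arrays were identical. Correlations ran from 0.9226 to 0.9892 within levels and from 0.9099 to 0.9895 between levels, so the 2 ranges overlapped.

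The 10 genes, the lists around them and the tests were chosen with earlier results of these data known. All 10 are named. Companion lists name up to 4 genes that passed, by smallest p, or else the nearest. Marker lists name up to 3 that passed and the brightest, and each gene that fell has its 3 most alike profiles. Alternatives changed the scaling, the filter, the probe sets, the variance model, array weights, a replicate block, RNA quality covariates, the slope model or the arrays used. Promoter windows are RefSeq's (GRCm38.p6). Figures were drawn with matplotlib 3.10.9.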

Additional observations from a re-analysis of the deposited data

Results flagged for a closer look

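GFP4 is the only level with at least 4 arrays, and its arrays were examined for 1 far from the rest, for each of the 10 genes. Dntt stood out: GFP4 replicate 2 read 12.384 log2, while the other 3 GFP4 arrays read 9.90, 10.22 and 10.21. About 1 in 20 such groups shows a gap of this size by chance. The same array read 13.41 for Ighm, where the others read 9.29, 10.16 and 9.73, a gap that stayed inside the limit for 4 arrays. Its neutrophil and monocyte genes averaged 9.43 log2, against 7.84, 8.45 and 7.56 in GFP4 replicates 1, 3 and 4. Their part in the Dntt value was not tested.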

How the results depend on the processing

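Among 10 genes and 3 comparisons, the fall of Il7r over GFP0 to GFP4 passed in 27 of 27 alternatives and that of Dntt in 26. Leaving out 1 array at a time (14 fits; a lone GFP0 or GFP3 array is assumed to vary like the other groups) gave 182 to 768 genes and 2 to 6 of the 10 genes lower for the slope over GFP0 to GFP4, against 609 and 6. It gave 51 to 363 genes and 0 to 5 of the 10 for GFP4 minus GFP0, against 306 and 3, and 82 to 430 genes and 1 to 4 of the 10 for GFP1 to GFP4, against 275 and 4. Steps gave 0 to 4 genes and the departure 0 to 1. The 2 calls left for the full slope without GFP0 replicate 1 were Dntt and Il7r; without GFP3 replicate 2 there were 3, with Satb1 as well, and without GFP4 replicate 4 there were 4.

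With array quality weights the full slope gave 90 genes and 2 of the 10, GFP4 minus GFP0 2 genes and 0 of the 10, the slope over GFP1 to GFP4 681 genes, and the steps 2. Without both arrays of narrow range these were 156 and 2 (Il7r and Rag2), 41 and 0, and 182 and 2, with 2 genes for the steps and 1 for the departure. Leaving out GFP4 replicate 2 as well gave 269 genes for the full slope, 112 for GFP4 minus GFP0, 2 of the 10 over GFP1 to GFP4, and 2 for the steps. With covariates from the 3 prime to 5 prime differences there were 165, 142 and 27 genes, and 0 of the 10 over GFP1 to GFP4. Centring gave 163 and the regression 519 genes over GFP1 to GFP4. A fit to the GFP4 and GFP0 arrays alone gave 58 genes and 1 of the 10 (Il7r).

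The labels do not say whether replicate numbers pair the samples. Same-numbered samples correlated between -0.258 and 0.576 (median 0.046, 23 pairs) in their deviations from group means. Differently numbered samples correlated between -0.632 and 0.476 (median -0.046, 54 pairs). In groups of 2 arrays the deviations mirror each other, so these values cannot decide whether the samples were paired. The replicate block, in which GFP4 replicate 4 stands alone and drops out, gave 337, 67 and 129 genes, and 2 of the 10 over GFP1 to GFP4.

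Signs turned only where nothing passed. Igll1 over GFP1 to GFP4 was 0.10 from its other probe set, an alternative chosen after seeing the data. Notch1 over GFP1 to GFP4 was -0.012 with array weights and -0.0052 to 0.19 with arrays left out. The full slope of Ikzf1 was -0.0022 with cyclic loess, -0.0079 as a mean of probe sets, -0.066 and -0.040 without the arrays of narrow range and with GFP4 replicate 2 also left out, -0.0048 by regression, and -0.062 to 0.11 with arrays left out. Its GFP4 to GFP0 difference was -0.085, -0.068, -0.43 and -0.31 in the first 4 of these, -0.15 with the replicate block and -0.41 to 0.43 with arrays left out. Ikzf1 over GFP1 to GFP4 ran from -0.065 to 0.011 with arrays left out. The causes were not tested.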
